A study of Mus musculus with 6 samples.

Results

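The Polycomb machinery is the set of genes that write, read and remove the repressive marks of the Polycomb system. It was followed here in the mouse melanoma line B16F10, whose cells are pigmented, cultured with the vehicle DMSO (3 libraries) or with GSK126 at 10 µM (3 libraries). GSK126 is a small-molecule inhibitor of the EZH2 methyltransferase. The genes were taken by symbol from a fixed list of 37, all of which were found among the 54838 genes of the count files, each with 1 identifier. The only labelled difference between the groups is the treatment, and all 6 libraries come from the same cell line with no genetic change named. The labels name DMEM or RPMI-1640 as the medium without saying which library had which. They do not give the length of the treatment, nor whether the replicates were separate cultures, so p-values measure the spread between these libraries, which may be technical. RNA was measured, not protein or histone marks, and in a bulk sample fewer cells of a type and less RNA per cell cannot be told apart.

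Polycomb repressive complex 2 (PRC2) places methyl groups on lysine 27 of histone H3 through EZH2 or its paralogue EZH1, with EED and SUZ12 as obligate partners and RBBP4 or RBBP7 as histone-binding subunits. The accessory subunits PHF1, MTF2, PHF19 and EPOP define PRC2.1, while JARID2 and AEBP2 define PRC2.2. Polycomb repressive complex 1 (PRC1) adds ubiquitin to histone H2A through RNF2 (RING1B) or RING1. Canonical PRC1 reads the PRC2 mark through a CBX chromodomain protein and compacts chromatin with PHC proteins, whereas variant PRC1 carries RYBP or YAF2 and other PCGF proteins. The PR-DUB complex of BAP1 with ASXL1 or ASXL2 removes the ubiquitin from H2A, and KDM6A and KDM6B remove the methyl groups from lysine 27. In melanoma, EZH2 is known as a gene that is often highly expressed and sometimes mutated.

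Library totals ran from 13594939 to 14713373 counts, and 37716 to 41208 reads per library fell in the 37 genes. All 37 passed the filter on low counts, with single values from 73 reads (Pcgf5) to 3771 reads (Bmi1). The 7 melanocyte markers summed to 21209 to 22592 CPM (counts scaled to a common library total, here the raw total) with DMSO and 22768 to 23830 CPM under GSK126. Of the other cell types, 4 keratinocyte, 5 immune and 4 endothelial markers summed to at most 0.142, 4.23 and 0.702 CPM. Krt5, Krt1, Krt10, Cd3e, Adgre1, Cdh5, Kdr and Tek had 0 reads in every library. The 6 fibroblast markers summed to 36.0 to 39.5 CPM under DMSO and 33.3 to 38.5 CPM under GSK126. The melanocyte sums of the groups did not overlap, but single markers differed in direction. Mitf had 8287 to 9242 reads with DMSO and 13968 to 14575 under GSK126, and Sox10, Dct and Pmel were also higher. Mlana was lower, at 13329 to 14940 reads against 11318 to 13111, while Tyr and Tyrp1 overlapped. The part of these markers in the results below was not tested.

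Most genes of the machinery differed little between the GSK126 and DMSO libraries. By the edgeR quasi-likelihood test with Benjamini-Hochberg adjustment over 13601 genes and a threshold of 0.05, Jarid2 and Rnf2 rose, Aebp2 and Phc2 fell, and 33 genes did not pass. These 4 of 37 genes are 10.8%, against 11.1% of all tested genes (5.87% higher and 5.18% lower). The DMSO and GSK126 libraries did not overlap for 13 of the 37 genes, or 35.1%, against 34.4% of all tested genes. Of these 13, 6 were higher and 7 lower, against 17.6% and 16.8% of all tested genes. Both shares were close to those of the whole transcriptome. The median log2 fold change of the 37 genes was -0.01 and the median of its absolute value was 0.15, against 0.00 and 0.16 over all tested genes. Of the 4 changes that passed, that of Jarid2 was the largest at 1.29-fold.

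The annotated promoters of the 4 genes that passed the test are shown with that of Ezh2, the target of the inhibitor. Which start sites these cells used was not measured. RefSeq (GRCm38.p6) gave a window of 250 bases before to 50 bases after the start site for 31 of the 37 genes, and the entry nearest the gene's annotated 5′ end was taken. The sequences read 5′ to 3′ on the gene's strand, and capitals mark CpG dinucleotides.
Jarid2 promoter, chr13:44730524-44730823, plus strand: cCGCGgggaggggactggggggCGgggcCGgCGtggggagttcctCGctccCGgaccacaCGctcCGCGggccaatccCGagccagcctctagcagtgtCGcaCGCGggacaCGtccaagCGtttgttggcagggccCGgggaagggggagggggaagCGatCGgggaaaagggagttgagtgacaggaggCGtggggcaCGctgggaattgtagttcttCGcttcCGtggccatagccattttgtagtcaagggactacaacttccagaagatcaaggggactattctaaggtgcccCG
Rnf2 promoter, chr1:151500942-151501241, minus strand: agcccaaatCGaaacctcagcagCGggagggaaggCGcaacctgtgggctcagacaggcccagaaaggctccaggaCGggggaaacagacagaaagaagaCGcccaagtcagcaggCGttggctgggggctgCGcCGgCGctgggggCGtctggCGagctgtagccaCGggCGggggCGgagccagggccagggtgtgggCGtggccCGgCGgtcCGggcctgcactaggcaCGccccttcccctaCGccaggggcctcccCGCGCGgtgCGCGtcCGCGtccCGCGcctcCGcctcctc
Aebp2 promoter, chr6:140622413-140622712, plus strand: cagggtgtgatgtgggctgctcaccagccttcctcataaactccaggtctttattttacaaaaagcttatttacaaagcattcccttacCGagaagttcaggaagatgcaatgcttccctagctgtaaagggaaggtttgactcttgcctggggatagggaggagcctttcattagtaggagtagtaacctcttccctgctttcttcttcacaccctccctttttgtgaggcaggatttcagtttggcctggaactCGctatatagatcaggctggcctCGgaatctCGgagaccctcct
Phc2 promoter, chr4:128654452-128654751, plus strand: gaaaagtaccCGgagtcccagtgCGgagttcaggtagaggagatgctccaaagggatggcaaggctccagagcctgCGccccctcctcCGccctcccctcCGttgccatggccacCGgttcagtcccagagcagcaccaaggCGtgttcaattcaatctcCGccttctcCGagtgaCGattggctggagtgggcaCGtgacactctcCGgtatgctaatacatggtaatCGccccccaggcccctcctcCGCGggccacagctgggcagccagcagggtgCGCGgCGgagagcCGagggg
Ezh2 promoter, chr6:47594981-47595280, minus strand: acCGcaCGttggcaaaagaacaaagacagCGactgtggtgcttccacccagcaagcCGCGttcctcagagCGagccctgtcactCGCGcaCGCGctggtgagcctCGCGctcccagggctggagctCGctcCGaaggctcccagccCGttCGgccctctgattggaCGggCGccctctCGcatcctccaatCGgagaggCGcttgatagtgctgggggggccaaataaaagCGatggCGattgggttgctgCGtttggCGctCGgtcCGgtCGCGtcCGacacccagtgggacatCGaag
The windows of Jarid2, Rnf2, Phc2 and Ezh2 hold 24, 30, 19 and 31 CpG dinucleotides. The Aebp2 window holds 4, and the other annotated Aebp2 starts hold up to 21. The 3 annotated Phc2 entries hold from 2 to 45, and the 2 Jarid2 entries hold 23 and 24. The Jarid2 and Ezh2 windows do not include the annotated 5′ ends of these genes, at 44729474 and 47595341. Across the 31 genes the count ran from 4 to 54 with a median of 24, and 29 genes had at least 10. Among all 32851 promoter entries of the table, which can hold several per gene, the median was 7 and 43.5% had at least 10. The E2F motif forms, TTTCCCGC and TTTGGCGC on either strand, were found in 3 of the 31 windows (Ezh2, Suz12 and Phf19), against 1.56% of all entries. Both forms hold a CpG, and the 31 windows are richer in CpG than all entries. The 2 sets are therefore unlike, and enrichment of the motifs was not tested.

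Among the PRC2 core genes, Ezh2 stood at 192, 184 and 192 CPM (counts scaled to library size by TMM) in the DMSO libraries and 191, 197 and 192 CPM in the GSK126 libraries. The groups overlapped (log2 fold change 0.03, 95% interval -0.07 to 0.13). Ezh1, the paralogue with weaker methyltransferase activity, stood at 43.7, 48.7 and 46.5 CPM against 52.9, 53.6 and 52.1 CPM. All GSK126 values of Ezh1 lay above the DMSO values but missed the threshold (log2 fold change 0.19, SE 0.06, edgeR adjusted p = 0.104). On the per-length FPKM scale, Ezh2 made up 82.3% to 84.4% of the summed Ezh1 and Ezh2 level with DMSO and 81.6% to 81.9% with GSK126. The mean share was 83.4% ± 1.07 with DMSO and 81.8% ± 0.179 with GSK126 (SD, n = 3). The groups narrowly did not overlap (82.3% against 81.9%). This share restates the Ezh1 and Ezh2 values above and has no test.

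Eed, which binds the trimethylated mark and stimulates the enzyme, stood at 60.3, 62.0 and 62.9 CPM (DMSO) and 51.2, 57.0 and 51.7 CPM (GSK126). The GSK126 values of Eed were all lower, with a log2 fold change of -0.21 (SE 0.06, edgeR adjusted p = 0.0800). Rbbp4, a histone chaperone shared with other chromatin complexes, had a log2 fold change of -0.15 (SE 0.04, edgeR adjusted p = 0.0724) and groups that did not overlap. Its paralogue Rbbp7 had one of -0.14 (SE 0.09) with groups that overlapped. Of the 6 core genes, 0 passed edgeR over all genes, against 11.1% of all tested genes, and DESeq2 and limma-voom also called 0. An unadjusted p below 0.05 was found for 3, against 27.5% of all tested genes. The 3 were Ezh1, Eed and Rbbp4.

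**Figure D1:**
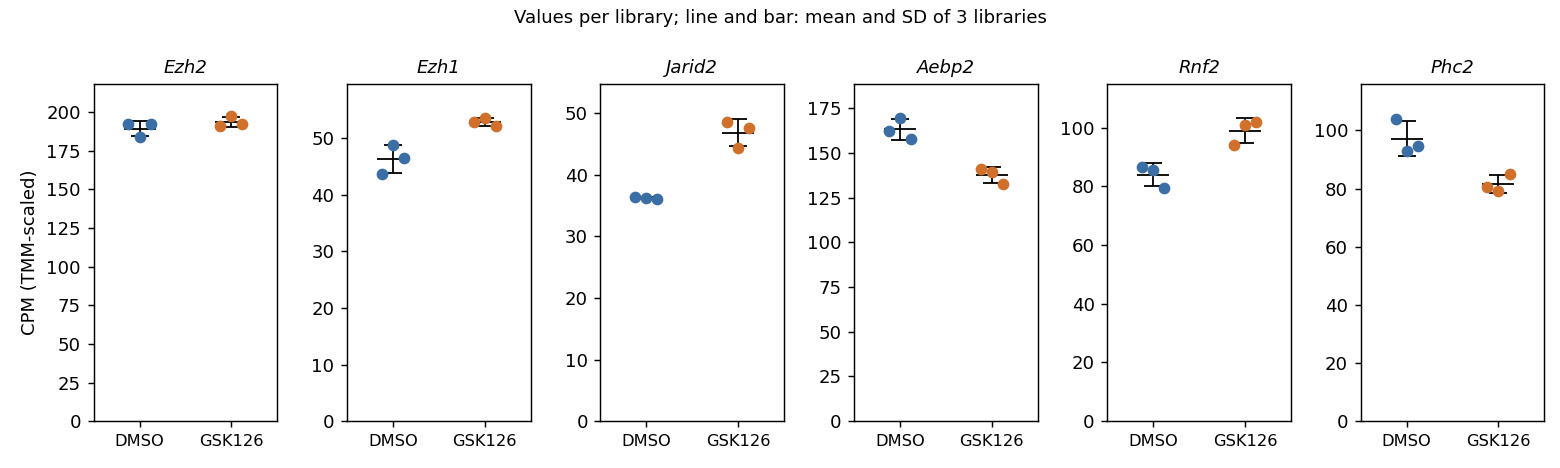
CPM of Ezh2, Ezh1 and the 4 genes that passed the test, with 1 point per library, the mean as a line and the SD as a bar (n = 3 per group, axes from 0). Ezh2 overlaps between groups, Ezh1, Jarid2 and Rnf2 lie higher in all GSK126 libraries, and Aebp2 and Phc2 lie lower.

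The PRC2.2 subunits moved in opposite directions. Jarid2, which helps recruit PRC2 and is itself methylated by it, stood at 36.5, 36.3 and 36.0 CPM in the DMSO libraries and 48.6, 44.3 and 47.6 CPM in the GSK126 libraries. It rose 1.29-fold, and the groups did not overlap (log2 fold change 0.37, SE 0.06, edgeR adjusted p = 0.0145). Aebp2, a zinc finger protein that binds SUZ12 beside JARID2, stood at 162, 169 and 158 CPM (DMSO) and 141, 139 and 132 CPM (GSK126). It fell, again without overlap (log2 fold change -0.25, SE 0.05, edgeR adjusted p = 0.0233). On the FPKM scale, Jarid2 made up 17.2% to 18.2% of the summed Jarid2 and Aebp2 level with DMSO and 23.6% to 25.9% with GSK126. This ratio was chosen after the changes had been seen and has no test. Leaving out single libraries ended the Jarid2 call in 4 of 6 fits (edgeR adjusted p from 0.0284 to 0.0623), the exceptions being GSK126 replicates 2 and 3. It ended the Aebp2 call in 4 of 6 (0.0396 to 0.0898), the exceptions being DMSO replicate 3 and GSK126 replicate 3.

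The PRC2.1 subunits had 0 calls among 4 genes by edgeR, DESeq2 and limma-voom, and 0 had an unadjusted p below 0.05. Among all tested genes, edgeR called 11.1%, 27.5% had an unadjusted p below 0.05, and 34.4% had groups that did not overlap. Phf19, a Tudor-domain protein that binds H3K36 methylation, stood at 23.4, 24.8 and 23.3 CPM (DMSO) and 28.2, 26.0 and 25.7 CPM (GSK126). Epop, which links PRC2 to elongin, stood at 10.4, 10.5 and 11.1 CPM against 8.59, 10.4 and 8.30 CPM. The groups did not overlap for either gene, with log2 fold changes of 0.16 (SE 0.08) for Phf19 and -0.23 (SE 0.12) for Epop. For Epop the separation was narrow (10.44 CPM with DMSO against 10.40 CPM with GSK126). Its raw reads overlapped, at 142, 147 and 150 with DMSO and 123, 153 and 119 with GSK126. The DNA-binding subunits Mtf2 and Phf1 had log2 fold changes of -0.06 (SE 0.19) and 0.06 (SE 0.20), with a spread within DMSO that is described below.

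Of the ubiquitin ligases of PRC1, Rnf2 rose and Ring1 did not pass. Rnf2 had 1180, 1204 and 1073 reads in the DMSO libraries and 1350, 1485 and 1460 in the GSK126 libraries. The rise was 1.18-fold with no overlap between groups (log2 fold change 0.24, SE 0.06, edgeR adjusted p = 0.0426), and the call ended whichever library was left out (adjusted p from 0.0665 to 0.127). DESeq2 gave it an adjusted p of 0.0534. Rnf2 lies on GRCm38 chromosome 1, 151458004 to 151500955. Trmt1l overlaps 158 bp of its exons on the other strand, so part of the Rnf2 reads is uncertain. The summed counts of both genes passed (log2 fold change 0.24, SE 0.05, edgeR adjusted p = 0.0235). Trmt1l alone had a similar log2 fold change of 0.25 (SE 0.07, edgeR adjusted p = 0.0630). The sum therefore cannot tell which gene's reads rose. Ring1 stood at 16.4, 18.5 and 19.0 CPM against 19.8, 19.4 and 14.4 CPM, with the lowest value in GSK126 replicate 3. Whether Rnf2 and Ring1 differed in their change was not tested.

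Canonical PRC1 had 1 call among 10 genes, against 11.1% of all tested genes. Phc2, a polyhomeotic protein whose SAM domain lets PRC1 polymerise, stood at 104, 92.8 and 94.7 CPM (DMSO) and 80.5, 79.3 and 85.0 CPM (GSK126). It fell, with no overlap between groups (log2 fold change -0.25, SE 0.06, edgeR adjusted p = 0.0435), and the call held in 1 of 6 fits without a library, that without GSK126 replicate 3 (adjusted p from 0.0450 to 0.132). Its paralogue Phc1 had overlapping groups (log2 fold change -0.05, SE 0.06). Bmi1, the PCGF subunit with the highest level, stood at 249 ± 6.22 CPM (DMSO) and 251 ± 10.7 CPM (GSK126) (SD, n = 3). Its log2 fold change was 0.01 with a 95% interval from -0.10 to 0.12.

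The chromodomain genes of canonical PRC1 did not pass the test. Cbx7 stood at 24.8, 28.0 and 27.9 CPM (DMSO) and 19.8, 22.5 and 23.2 CPM (GSK126). Cbx2, the CBX protein that compacts nucleosomes through a charged region, stood at 32.2, 29.3 and 30.2 CPM against 26.7, 26.8 and 25.0 CPM. Every GSK126 value of both genes lay below the DMSO values, with log2 fold changes of -0.30 (SE 0.09, adjusted p = 0.0832) and -0.23 (SE 0.07, edgeR adjusted p = 0.0983). Cbx8 overlapped between groups (-0.02, SE 0.10), and Cbx6 had the opposite sign (0.44, SE 0.22) with 1 high library. Pcgf2 and Scmh1 had log2 fold changes of 0.06 (SE 0.18) and 0.09 (SE 0.10). The remaining gene of this class, Phc3, is described with the libraries that stood apart.

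Variant PRC1 had 0 calls among 8 genes by edgeR, DESeq2 and limma-voom, and Rybp had an unadjusted p below 0.05. Over all tested genes, edgeR called 11.1%, 27.5% had an unadjusted p below 0.05, and 34.4% had groups that did not overlap. Rybp, which bridges RING1B and the nucleosome, stood at 50.4, 49.0 and 51.8 CPM (DMSO) and 52.5, 58.5 and 63.4 CPM (GSK126). Its groups did not overlap (log2 fold change 0.21, SE 0.08, edgeR adjusted p = 0.149). An annotated Rybp pseudogene held 75 to 118 reads per library and could take part of its reads. Kdm2b, which brings the PCGF1 complex to unmethylated CpG islands, also had groups that did not overlap, at 37.0, 33.8 and 34.8 CPM against 38.1, 39.8 and 39.3 CPM (log2 fold change 0.15, SE 0.07). Kdm2b shares 627 bp of exons with Rnf34 on the other strand, and their summed counts did not pass (0.18, edgeR adjusted p = 0.142). The other subunits of the PCGF1 complex, Pcgf1 and Bcor, had log2 fold changes of -0.18 (SE 0.10) and 0.02 (SE 0.08). Those of Pcgf3, Pcgf6 and Yaf2 were 0.09 (SE 0.07), 0.09 (SE 0.07) and -0.09 (SE 0.07).

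PR-DUB and the lysine 27 demethylases had 0 calls among 3 and 2 genes by edgeR, DESeq2 and limma-voom. They had 0 genes with an unadjusted p below 0.05, and no gene whose groups did not overlap. Of all tested genes, edgeR called 11.1%, 27.5% had an unadjusted p below 0.05, and 34.4% had groups that did not overlap. With so few genes, counts of 0 do not set these classes apart. Asxl1, a cofactor of the BAP1 deubiquitinase, stood at 144 ± 8.08 CPM (DMSO) and 141 ± 6.02 CPM (GSK126) (SD, n = 3). Asxl2 and Bap1 had log2 fold changes of 0.14 (SE 0.11) and -0.19 (SE 0.15), and neither passed. The Asxl2 value was 0.04 without DMSO replicate 1 and 0.04 without GSK126 replicate 3. Asxl2 shares 155 bp of exons with the antisense gene 1110002L01Rik, and their summed counts gave 0.07 (SE 0.07). Kdm6a, also known as UTX, stood at 53.7 ± 6.40 against 53.9 ± 6.17 CPM (log2 fold change 0.00, 95% interval -0.27 to 0.27). Kdm6b, also known as JMJD3, stood at 45.6 ± 2.66 against 43.4 ± 1.51 CPM (SD, n = 3; log2 fold change -0.07, 95% interval -0.23 to 0.09).

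**Figure D2:**
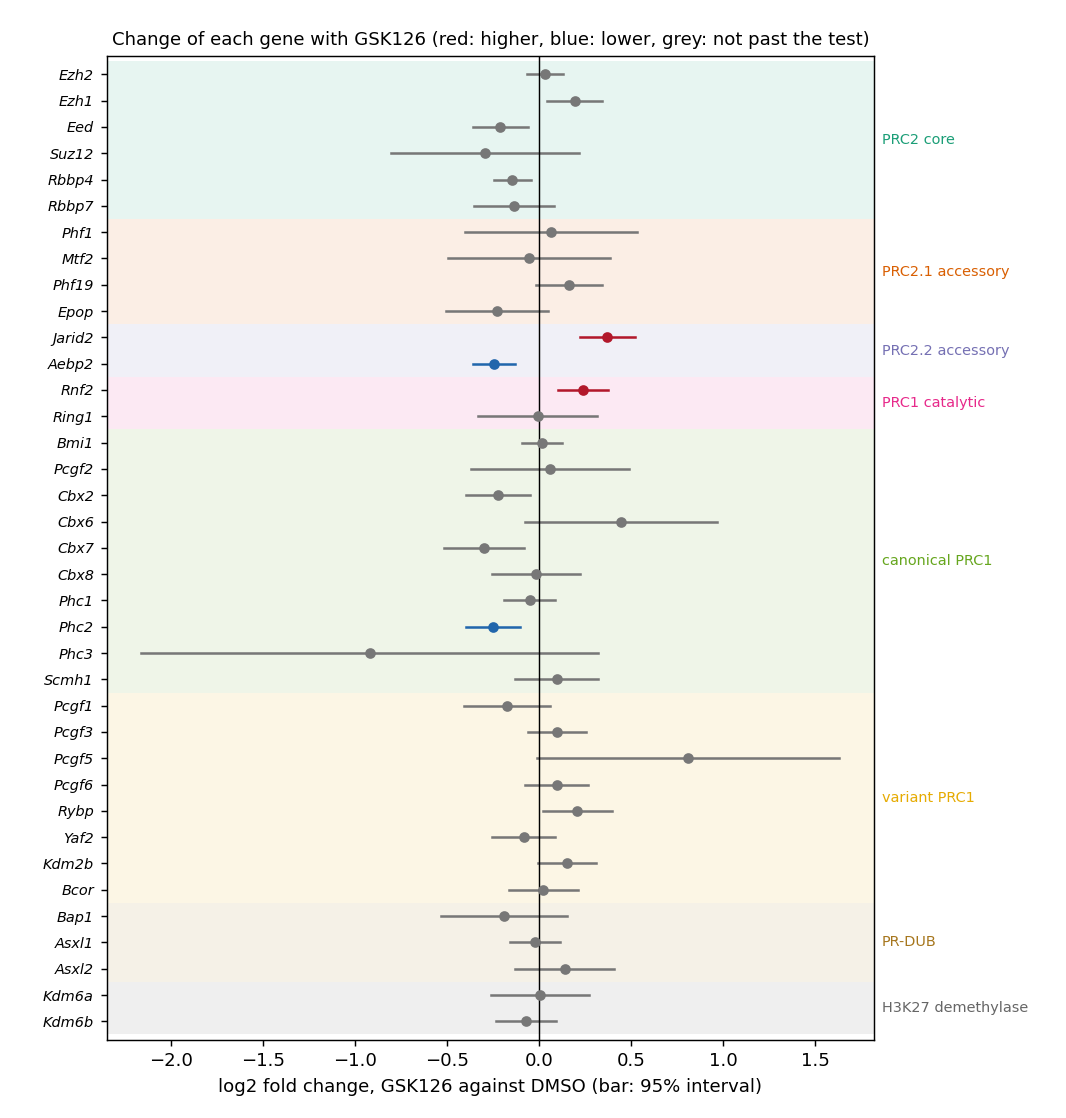
Log2 fold change of each of the 37 genes, GSK126 against DMSO, with its 95% interval as a bar, grouped by complex. Jarid2 and Rnf2 are marked as higher, Aebp2 and Phc2 as lower, and the 33 others did not pass the test; Phc3 and Pcgf5 have the widest intervals.

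Placed side by side, the classes gave 0 of 6 calls in the PRC2 core, 0 of 4 in PRC2.1, 2 of 2 in PRC2.2, 1 of 2 among the PRC1 ligases, 1 of 10 in canonical PRC1, 0 of 8 in variant PRC1, 0 of 3 in PR-DUB and 0 of 2 among the demethylases, against 11.1% of all tested genes. The median log2 fold change was -0.14 for the PRC2 core, -0.04 for canonical PRC1 and 0.09 for variant PRC1. Without GSK126 replicate 3, the library with low Suz12 and Rbbp7, the median of the PRC2 core was -0.05. With single libraries left out, that of canonical PRC1 ran from -0.10 (without GSK126 replicate 2) to -0.01 (without GSK126 replicate 1), and that of variant PRC1 from 0.08 to 0.12. In variant PRC1, 6 of 8 genes had a positive sign and in canonical PRC1 4 of 10, against 6791 of 13601 over all tested genes. With so few genes in each class these counts are a description, and a difference between the classes was not tested.

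Levels of different genes were compared on the deposited FPKM scale, which divides by a length per gene that was not stated. That length did not follow the annotated exon bases (GENCODE M21) for every gene. Mtf2 (5698 exon bases) had a mean of 43.5 CPM and 2.62 FPKM, while Pcgf6 (5027 exon bases) had 31.8 CPM and 15.1 FPKM. Orders and shares on this scale may therefore change with another length. Bmi1 had the highest mean level over the 6 libraries (38.7 FPKM) and Pcgf5 the lowest (0.612 FPKM). In the PRC2 core, Rbbp7 (31.2 FPKM), Suz12 (28.6), Rbbp4 (23.0) and Ezh2 (21.1) formed an upper group in which each gene's range overlapped that of the next. Eed (8.84 FPKM) lay below them without overlap, and Ezh1 (4.44 FPKM) below Eed. Among PRC2 accessory genes, Aebp2 (9.26 FPKM) stood above the rest, which lay between 2.49 FPKM (Jarid2) and 4.26 FPKM (Epop) with each range overlapping the next.

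For PRC1, Rnf2 (12.3 FPKM) exceeded Ring1 (3.61 FPKM) in every library, making up 73.7% to 82.6% of their sum. On the FPKM scale, the PCGF order was Bmi1, Pcgf6 (15.1 FPKM), Pcgf3 (7.76), Pcgf2 (5.55), Pcgf1 (5.51) and Pcgf5. Of the neighbours in it, Pcgf2 and Pcgf1 had overlapping ranges. By mean CPM, Pcgf3 (78.1) lay above Pcgf6 (31.8), so the order of these genes depends on the scale. In the CBX genes listed, Cbx6 (7.81 FPKM) and Cbx2 (6.34) overlapped, while Cbx8 (3.83) and Cbx7 (1.72) each lay lower. Phc2 (8.80 FPKM) stood above Phc1 (7.36) and Phc3 (1.78), and Yaf2 (17.1) above its paralogue Rybp (9.69). In PR-DUB, Asxl1 (16.7 FPKM) stood above Bap1 (7.33) and Asxl2 (2.30). Of the demethylases, Kdm6b (6.11 FPKM) exceeded Kdm6a (4.47) in each library on this scale. Their mean CPM ran the other way, at 44.5 for Kdm6b and 53.8 for Kdm6a.

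**Figure D3:**
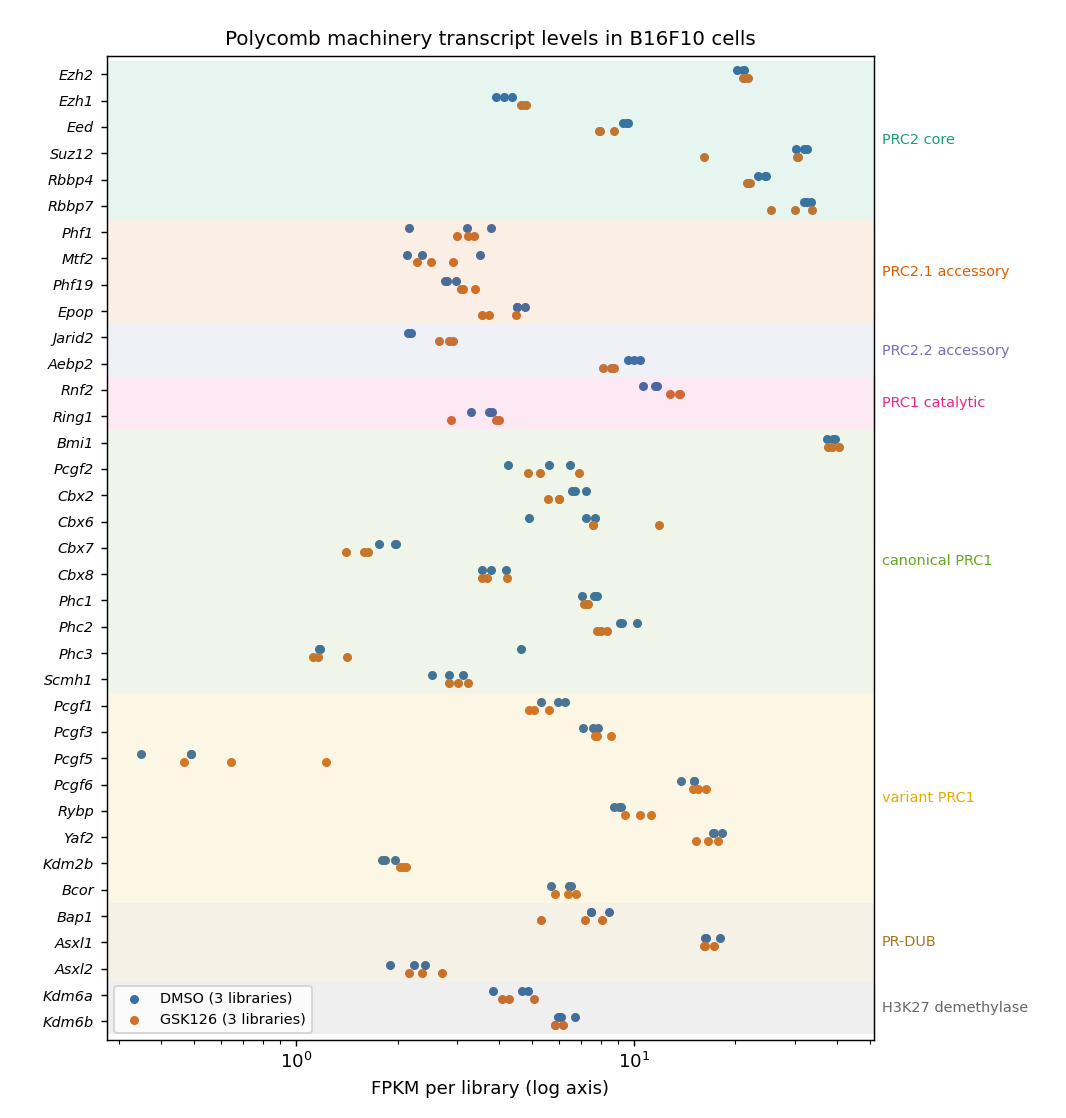
FPKM of each of the 37 genes in each library on a log axis, DMSO in blue and GSK126 in orange, grouped by complex. Bmi1 lies highest and Pcgf5 lowest; Suz12 has 1 low GSK126 point and Phc3 1 high DMSO point.

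Several genes had 1 library apart from the other 5, and for these the fold change rested on that library. Suz12, the scaffold of PRC2, had 3505, 3698 and 3314 reads with DMSO and 3533, 3621 and 1884 reads with GSK126, with GSK126 replicate 3 far below the rest. On the CPM scale that library stood at 131 against 246 to 263 in the other 5. Its log2 deviation from the mean of the other GSK126 libraries was -0.90. Of 10973 genes with a mean of 5 CPM or more, 80, Suz12 itself included, deviated downwards at least as far in that library. The log2 fold change of Suz12 was -0.30 (SE 0.22, edgeR adjusted p = 0.425) with all libraries and -0.05 (SE 0.04, adjusted p = 0.494) without GSK126 replicate 3.

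Genes beside Suz12 did not stand as low in that library. Suz12 lies on GRCm38 chromosome 11, 79993106 to 80034123. Within 100 kb, Utp6, Crlf3 and Atad5 deviated by -0.03, -0.08 and 0.26 in the same library. The antisense lincRNA Gm26563, which shares 178 bp of exons with Suz12, had 0 reads in every library. Among the other PRC2 core genes, Rbbp7 deviated by -0.31, at 145, 131 and 111 CPM in the GSK126 libraries, while Ezh2 and Eed deviated by -0.02 and -0.06. Without this library the log2 fold change of Rbbp7 was -0.04 (SE 0.06), and without GSK126 replicate 1 it was -0.23 (SE 0.08). GSK126 replicate 3 also held the only reads of the immune gene Ptprc (14 reads), and their part in the Suz12 value was not tested.

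**Figure D4:**
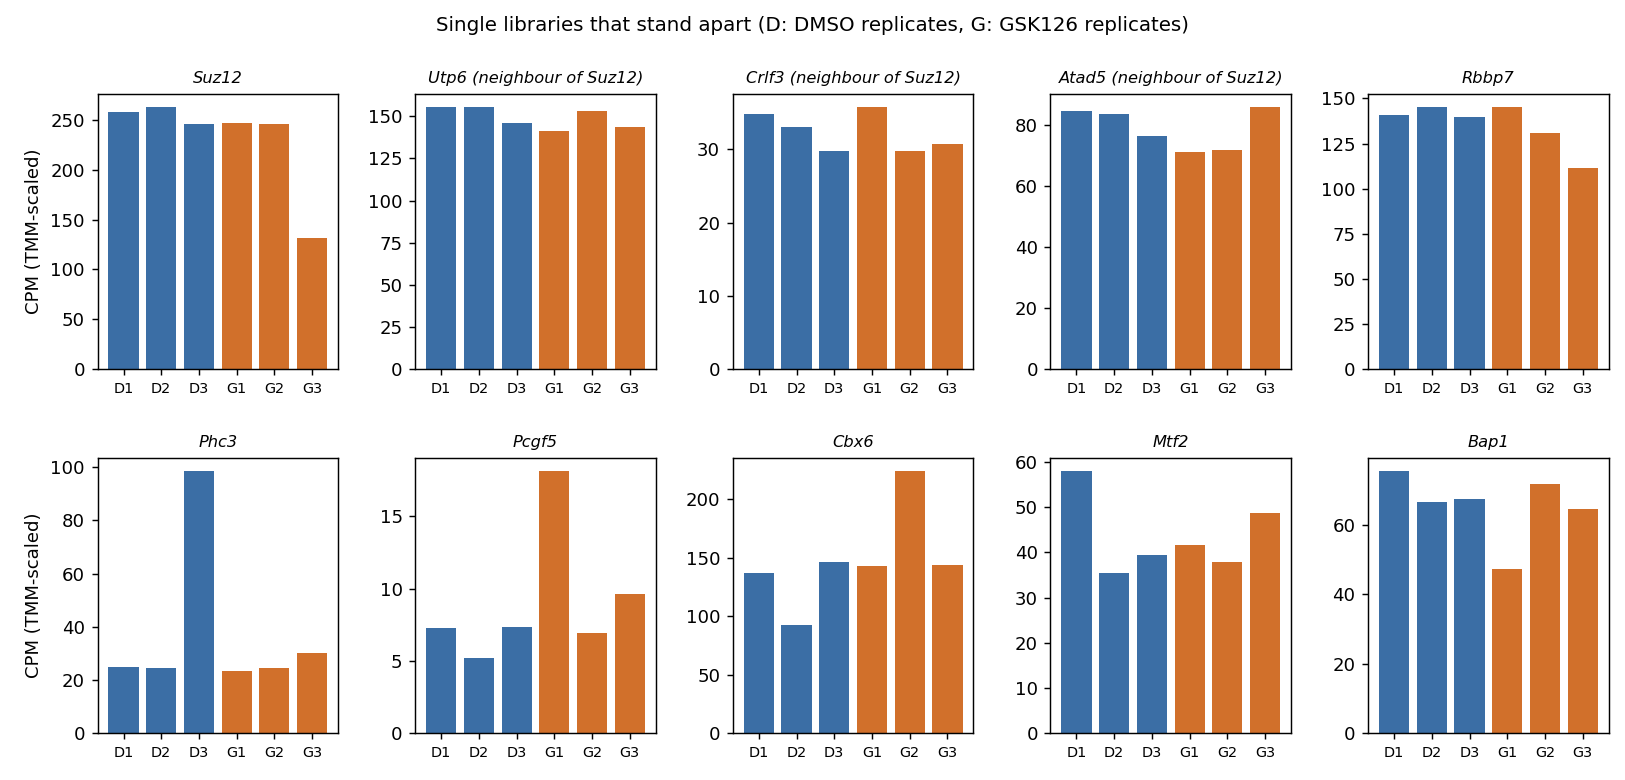
CPM per library (bars from 0; D and G are DMSO and GSK126 replicates) for Suz12, its 3 expressed neighbours and 6 other genes of the machinery. Suz12 is low in G3 while Utp6, Crlf3 and Atad5 are not, and Phc3 is high in D3, Pcgf5 in G1 and Cbx6 in G2.

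Phc3, the third polyhomeotic gene, showed the widest departure. It had 339, 347 and 1332 reads with DMSO and 337, 362 and 431 reads with GSK126, the high value being DMSO replicate 3. Its log2 fold change was -0.92 (SE 0.53) with all libraries and 0.07 (SE 0.12, edgeR adjusted p = 0.776) without that one. Pcgf5, a subunit of a variant PRC1 active on H2A ubiquitin, stood at 7.28, 5.19 and 7.34 CPM against 18.1, 6.93 and 9.62 CPM, with GSK126 replicate 1 high. Its log2 fold change of 0.81 (SE 0.35, adjusted p = 0.187) became 0.33 (SE 0.22, edgeR adjusted p = 0.411) without that library. Cbx6 had 3301 reads in GSK126 replicate 2 and 1305 in DMSO replicate 2, against 1862 to 2067 in the other 4. Its log2 fold change was 0.19 (SE 0.18) without GSK126 replicate 2 and 0.26 (SE 0.20) without DMSO replicate 2.

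Smaller departures were seen for Mtf2 (790 reads in DMSO replicate 1, 499 to 697 elsewhere), Phf1 (74 reads in DMSO replicate 2, 105 to 125 elsewhere) and Bap1 (675 reads in GSK126 replicate 1, 909 to 1056 elsewhere). Without those libraries the log2 fold changes were 0.19 (SE 0.12) for Mtf2, -0.13 (SE 0.14) for Phf1 and -0.04 (SE 0.09) for Bap1, which had -0.32 without GSK126 replicate 2. Mtf2 shares 395 bp of exons with Tmed5 and Phf1 1370 bp with Cuta, both on the other strand, so part of their reads is uncertain. A rule made after these values were seen counted genes with 1 library at least 0.5 (log2) from the median of the other 5, whose own range was below 0.5. Suz12, Phc3, Mtf2, Phf1 and Bap1 met it, or 13.5% of the 37 genes, against 787 (7.17%) of the 10973 genes with at least 5 CPM. Mtf2, Phf1 and Bap1 lay just past the limit, at 0.55, -0.54 and -0.51. Pcgf5 and Cbx6 did not meet the rule, as their other 5 libraries ranged over 0.83 and 0.66. Because the rule followed these values, the 2 shares are a description and cannot serve as a test. Of those 787, 367 had GSK126 replicate 3 as the library apart, against 64 to 107 for each of the other 5 libraries.

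Other genes tied to the same complexes were counted in the same fit. Of 31 further subunits and partners, 28 could be tested, 2 rose, 0 fell and 26 did not pass (7.14% against 11.1% of all tested genes; median log2 fold change 0.00). Bcorl1, the paralogue of Bcor, rose by 0.47 on the log2 scale (SE 0.11), from 23.8 ± 1.14 to 33.0 ± 4.29 CPM (SD, n = 3). Mbd5, a methyl-CpG-binding domain protein that binds PR-DUB, rose by 0.45 (SE 0.11), from 17.3 ± 1.03 to 23.6 ± 3.12 CPM. Ezhip, an inhibitor of PRC2 listed in the files under its older symbol AU022751, had 0 reads in every library. Cbx3, a heterochromatin protein also found in the PCGF6 complex and named here after its values were seen, had 2497, 2708 and 2549 reads with DMSO and 1104, 2530 and 1167 with GSK126, so that the low values were in replicates 1 and 3 (log2 fold change -0.77, SE 0.29, edgeR adjusted p = 0.132). The Cbx3 pseudogenes Cbx3-ps6 and Cbx3-ps7 held 1547 to 1680 and 651 to 942 reads per library, so the reads of Cbx3 are uncertain.

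Of 24 genes that oppose Polycomb repression, among them other H2A deubiquitinases, H3K4 methyltransferase complexes and chromatin remodellers, 23 could be tested. Of these, 2 rose and 0 fell, or 8.70% against 11.1% of all tested genes, with a median log2 fold change of 0.04. Both were deubiquitinases. The other deubiquitinases listed, Mysm1 and Usp16, had log2 fold changes of 0.08 (SE 0.10) and -0.08 (SE 0.07) and did not pass. Usp3 had 194, 215 and 220 reads with DMSO and 344, 361 and 329 with GSK126 (log2 fold change 0.64, SE 0.08, edgeR adjusted p = 0.00541). Usp21 had 355, 424 and 423 reads against 509, 566 and 543 (log2 fold change 0.35, SE 0.09, edgeR adjusted p = 0.0455). The groups did not overlap for either gene.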

How the data were processed

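The submitters' processing notes name CASAVA 1.8, HISAT2 and the builds GRCm38.p4 and mm10. How reads were counted, with which strand setting and gene models, was not given in the sources used here, so reads of overlapping genes on opposite strands cannot be told apart. The deposited files hold raw counts per gene for each library and a joint table of FPKM values. The deposited FPKM equalled the counts divided by library total and a constant per gene, with ratios between libraries of at most 1.00002 for 11012 genes. Counts were used for tests and FPKM for levels between genes.

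Samples were grouped by treatment label. The test on counts used edgeR 4.0.16 under R 4.3.3 (filterByExpr, TMM, glmQLFit and glmQLFTest, group as the only term), with Benjamini-Hochberg adjustment over 13601 genes and a threshold of 0.05. SEs and 95% intervals come from the F statistic and its degrees of freedom. Alternatives used limma 3.58.1 and DESeq2 1.42.0, and the test was tested on simulated data. Deviations of 1 library used log2(CPM + 0.5). Shared exons come from GENCODE M21, and a partner had to hold at least 10% as many reads to be summed. The 37 genes were all described. From the other 2 lists, genes past the threshold were named, up to 4 a list, with genes within 100 kb of Suz12. Ezhip and Cbx3 fall outside that rule and were chosen after their values were seen. Mysm1 and Usp16 also fall outside it and were named as the other deubiquitinases listed. Genes and lists were chosen with earlier results of these data known.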

Additional observations from a re-analysis of the deposited data

How the results depend on the processing

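Against 1503 genes called by edgeR, 899 were called with no filter on low counts, 889 on log2(FPKM + 0.1) with no filter, and 529 to 1243 with 1 library left out. Of the 37 genes, 2 were higher and 2 lower. With no filter these counts were 1 and 1, on log2(FPKM + 0.1) 1 and 1, on log2(FPKM + 1) 1 and 0, and on FPKM with no filter 0 and 0. DESeq2 gave 1 higher, as did leaving out the genes that share exons. With 1 library left out there were 0 to 1 higher and 0 to 2 lower. With the replicate number as a block, 408 genes were called, 0 of the 37 higher and 0 lower. Deviations of same-numbered libraries correlated at 0.042, -0.0057 and -0.057, and not every library correlated best with its own number, so the numbers were not taken as pairs. The sign of Kdm6a turned with no filter (log2 fold change -0.000829). With 1 library left out, the log2 fold change ran from -0.0942 to 0.0670 for Kdm6a, -0.19 to 0.19 for Mtf2, -0.13 to 0.24 for Phf1, -0.0894 to 0.12 for Ring1, -0.11 to 0.19 for Pcgf2, -0.10 to 0.0466 for Cbx8, -0.0619 to 0.0204 for Asxl1, -0.0214 to 0.0385 for Bmi1, -1.25 to 0.0700 for Phc3 and -0.0365 to 0.0775 for Bcor. Jarid2, Aebp2, Rnf2 and Phc2 kept their direction in all of these fits. The causes of these changes were not tested. With 3 libraries a group, the median SE over the 37 genes was 0.0799, and the smallest detectable change was not measured.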
